A study of Rattus norvegicus with 21 samples.

Results

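The neurotrophin Ntf3, its relative Bdnf and the receptors Ntrk2, Ntrk3 and Cntfr were followed across all groups of a rat spinal cord array series. The members were all probes whose symbol in the platform annotation was one of these 5 gene names. There were 7 such probes of 5376 in the table, and they stood for 5 of 4153 named genes. Ntf3 and Bdnf had 2 probes each, which were kept apart, and the receptors had 1 each. Probes are named here by gene and source plate position, for example Ntf3 43G09 and Ntf3 52H09.

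The series holds 21 arrays with 2 colours, 3 in each of 7 groups of rat spinal cord RNA, and comes from work on anti-inflammatory compounds in spinal cord injury. Spinal cord was kept in culture for 4 hr with CKIN, MP, acetaminophen (Acet), indomethacin (Indo), NS398 or the PBS vehicle alone (Injured 4 hr), or was used freshly dissected without culture (Uninjured). The reference channel held pooled culture RNA: a PBS pool for CKIN, MP, Acet, Injured 4 hr and Uninjured, an ethanol (ETOH) pool for Indo and a DMSO pool for NS398. The titles of the treatment arrays leave out the word pooled and the source labels give it, so 1 shared PBS pool was taken as likely. CKIN and MP appear in the labels only as letters, and field knowledge gives inhibitors of cytokines for CKIN and the glucocorticoid drug methylprednisolone for MP as likely readings. Acetaminophen relieves pain and fever, indomethacin blocks cyclooxygenases 1 and 2 alike, and NS398 acts mainly on cyclooxygenase 2. The labels give no strain, age, sex, dose or number of animals, and nothing says whether replicates came from separate animals or cultures, so p-values measure the spread between these samples, which may be technical. Cut tissue in a dish has neither blood flow nor circulating cells, which limits it as a model of injury in the animal.

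Neurotrophins are secreted growth factors that keep neurons alive and shape their axons and synapses. NT-3, encoded by Ntf3, signals mainly through TrkC, the product of Ntrk3, and supports proprioceptive sensory neurons. BDNF signals through TrkB, the product of Ntrk2, which is found on neurons and, in a truncated form, on astrocytes. Cntfr encodes the ligand-binding subunit of the receptor for ciliary neurotrophic factor, which works together with gp130 (Il6st) and Lifr and is carried by motor neurons.

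Each array held values for 3092 to 4916 probes, and 10 arrays lacked more than 1100 spots (all CKIN and Indo arrays, 2 MP arrays, 1 Acet and 1 NS398 array). Deposited log2 ratios had array medians of -1.62 to 0.698 in the 5 treatment groups, -2.26 to -2.12 in Injured 4 hr and -4.12 to -3.09 in Uninjured, so each array was centred on its median and a value of 0 means the median probe of that array. The spread of the centred ratios, as median absolute deviation, was 0.430 to 0.673 in the treatments, 0.388 to 0.425 in Injured 4 hr and 0.896 to 0.962 in Uninjured. Logarithms of ratios of whole numbers up to 20 made up 8.08% to 13.2% of the values on the 15 treatment arrays, against 0.32% to 1.21% on the 6 untreated arrays. This property of the arrays and the treatment cannot be told apart in any comparison of a treatment with Injured 4 hr. Every Injured 4 hr array enters each of those comparisons, so they are not independent. Defining markers of neurons, astrocytes and oligodendrocytes (Snap25, Gfap, Mbp) were measured. The 9 neuronal marker probes present on all arrays had mean centred log2 ratios of 3.47 to 3.85 in Uninjured cord. These are ratios of fresh cord to the pool of cultured cord and give no level of expression. In bulk RNA, fewer cells of a type and less RNA per cell cannot be told apart.

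Ntf3 and Ntrk2 carried the largest differences among the members between groups of arrays. Ntf3 43G09 was lower in MP cultures than in Injured 4 hr cultures (-2.39 on the log2 scale), and Ntrk2 was lower in Injured 4 hr cultures than in Uninjured cord (-2.41). Relative to their vehicle pools, Ntf3 43G09 and Cntfr were also called lower in Indo and NS398.

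Of the 3 promoter windows that RefSeq lists for Ntf3, 1 starts close to another and was left out. The other 2 are shown because Ntf3 is the member with the largest treatment difference and MP is read as a glucocorticoid. Both lie on chromosome 4 of the GRCr8 assembly, on the minus strand, at chr4:160670574-160670873 and chr4:160668858-160669157, and each runs from 250 bases before a transcript start to 50 after it. Sequences are written 5′ to 3′ and capitals mark GC boxes, GGGCGG on either strand, which were present 1 time in the first window and 2 times in the second.
Ntf3 window 1: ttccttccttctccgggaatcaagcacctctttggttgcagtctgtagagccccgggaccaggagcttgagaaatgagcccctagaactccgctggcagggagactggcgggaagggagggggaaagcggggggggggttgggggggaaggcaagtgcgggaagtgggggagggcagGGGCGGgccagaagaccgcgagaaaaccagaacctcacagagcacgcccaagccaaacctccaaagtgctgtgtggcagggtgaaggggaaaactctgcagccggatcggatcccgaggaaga
Ntf3 window 2: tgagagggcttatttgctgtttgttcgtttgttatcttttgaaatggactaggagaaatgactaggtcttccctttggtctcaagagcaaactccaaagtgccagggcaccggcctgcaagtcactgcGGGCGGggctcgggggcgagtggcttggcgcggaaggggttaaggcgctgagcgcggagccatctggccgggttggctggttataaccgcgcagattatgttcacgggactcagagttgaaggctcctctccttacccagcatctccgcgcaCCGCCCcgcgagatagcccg
GC boxes occurred in 33.1% of all 33469 rat promoter windows of this length. The glucocorticoid response element, the cyclic AMP response element TGACGTCA and the AP-1 site TGANTCA had 0 matches in both windows on either strand. They occurred in 0.439%, 1.83% and 7.33% of all windows. These counts describe letters in 300 bases only. Which stretch of the Ntf3 transcript each probe reads is not given in the sources used here.

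Ntf3 43G09 was measured on all 15 treatment arrays, all 3 Injured 4 hr arrays and 2 Uninjured arrays. Its centred log2 ratio was -2.85, -2.70 and -2.49 in MP, against -0.43, -0.17 and -0.26 in Injured 4 hr. The MP values lay far below the Injured 4 hr values and the groups did not overlap. On the MP arrays the probe ranked between the 0.407th and 1.73rd percentile of all measured probes, against the 19.2th to 37.5th on the Injured 4 hr arrays. The mean was -2.68 ± 0.18 in MP and -0.29 ± 0.13 in Injured 4 hr (SD, n = 3 each), a change of -2.39 ± 0.39 (SE) with an adjusted p of 0.00651 in limma. By p-value it was number 2 of 4390 probes tested in that comparison. It was the 1 member probe called of 5 tested, where 2.14% of all probes were called. The median probe changed by -0.27 there, and the other probes of its source plate had a median change of -0.36. Before centring, the difference kept its sign at -0.41 but was not called (adjusted p = 0.463).

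**Figure D1:**
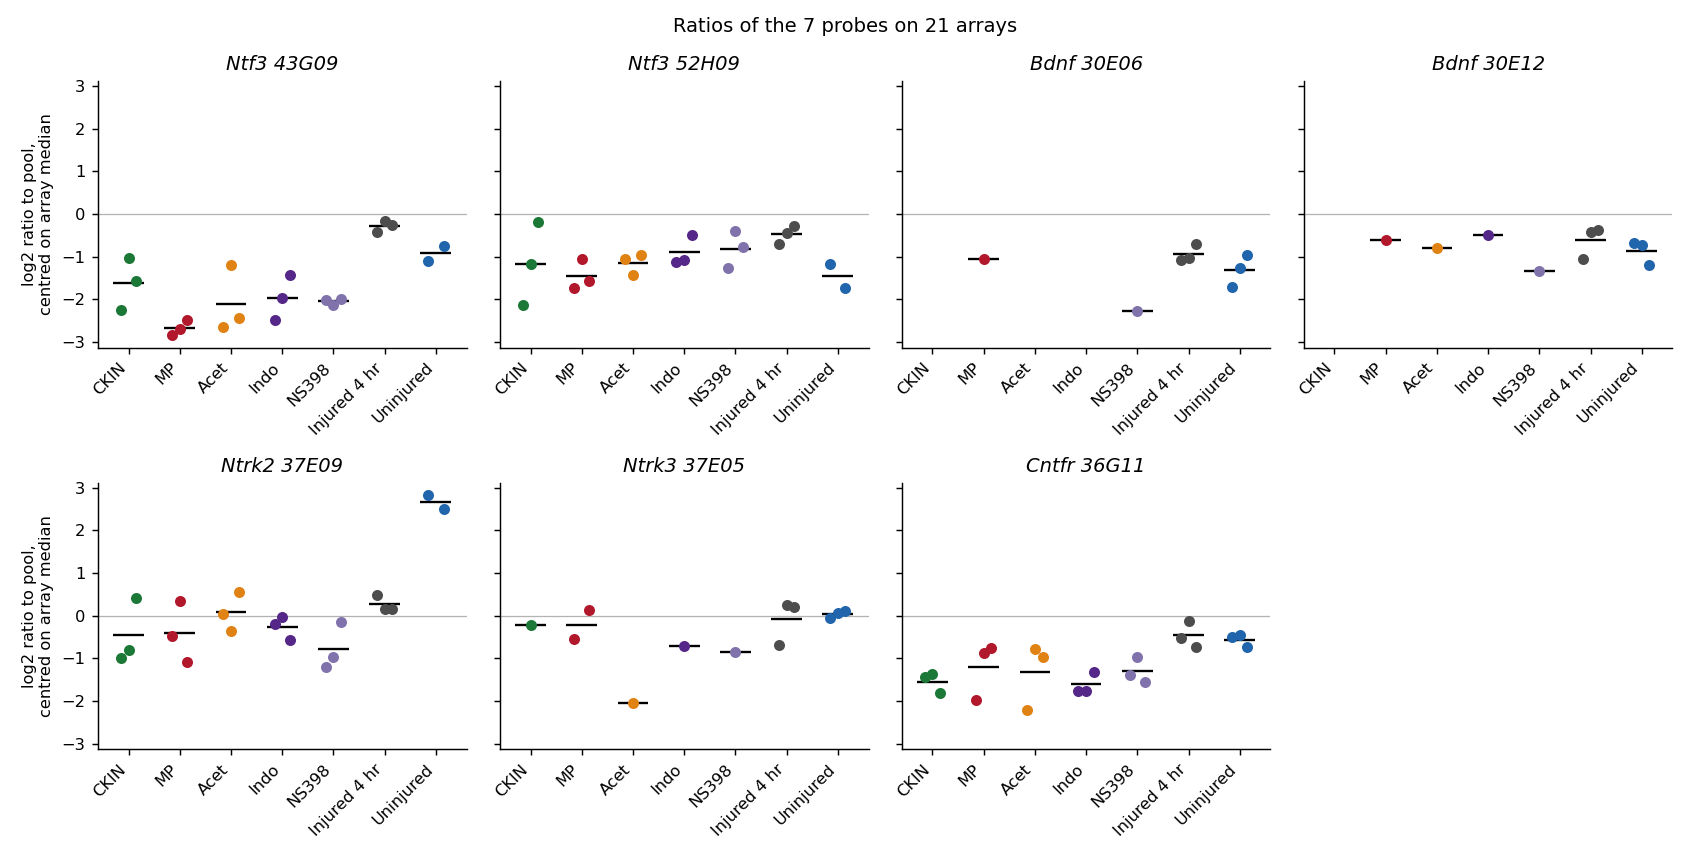
Centred log2 ratios of the 7 member probes (vertical axes, log2 units relative to the array median) in the 7 groups (horizontal axes), where each point is 1 array and each bar the group mean. Ratios are to the ETOH pool for Indo, the DMSO pool for NS398 and a PBS pool for the other groups. The MP points of Ntf3 43G09 sit between -2.85 and -2.49, below its Injured 4 hr points, and the Uninjured points of Ntrk2 sit at 2.51 and 2.83, above all others of that probe.

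In Acet cultures Ntf3 43G09 had -2.66, -1.20 and -2.45, against the same Injured 4 hr values. Acet replicate 2 was the high array of the 3, and the groups did not overlap, as for 20.4% of all probes in the lower direction. The change was -1.82 ± 0.39 (SE, adjusted p = 0.026, limma), and 1 of 4 member probes was called where 1.31% of all probes were called. The call was lost without Acet replicate 1, without Acet replicate 3 and without each Injured 4 hr array in turn, where adjusted p ran from 0.0858 to 0.154, and the sign turned to 0.12 before centring. In CKIN cultures the values were -2.24, -1.04 and -1.57, again below all Injured 4 hr arrays, as for 38.8% of all probes. The change was -1.33 ± 0.39 (SE, adjusted p = 0.0232, limma), and 2 of 4 member probes were called where 20.1% of all probes were called. It was lost without any of the 3 Injured 4 hr arrays or CKIN replicates 1 or 3 (adjusted p 0.0563 to 0.0915), and before centring the sign turned to 0.60. The median probe changed by -0.39 in CKIN and by -0.21 in Acet.

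The second Ntf3 probe showed less. Ntf3 52H09 had -1.74, -1.06 and -1.56 in MP, against -0.70, -0.45 and -0.28 in Injured 4 hr. These groups did not overlap, as was the case for 20.5% of all probes in the lower direction, and the change of -0.98 ± 0.40 (SE) was not called (adjusted p = 0.207, limma). Before centring it was 1.01, with the opposite sign. In Acet its values were -1.06, -1.43 and -0.97 and in CKIN -2.13, -1.17 and -0.19. Neither difference from Injured 4 hr was called (-0.68 with adjusted p = 0.493 in Acet, -0.68 with adjusted p = 0.239 in CKIN). CKIN replicate 3 was the high array of its group and overlapped Injured 4 hr. Before centring the changes were 1.26 in Acet and 1.25 in CKIN. The other probes of its source plate had median changes of -0.46 in MP, -0.41 in Acet and -0.79 in CKIN.

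Subtracting 1 Ntf3 probe from the other on the same array removes the centring. The difference 43G09 minus 52H09 was -1.11, -1.64 and -0.93 in MP, against 0.27, 0.28 and 0.02 in Injured 4 hr. The probe pair was apart on every MP array and close together on every Injured 4 hr array. Injured 4 hr arrays compare like RNA and had a narrow spread (median absolute deviation 0.388 to 0.425), which subtraction does not remove. The difference between the groups was -1.42, with an exact permutation p of 0.1 (two-sided, n = 3 each), the smallest this design allows. In Acet the values were -1.60, 0.23 and -1.48 and in CKIN -0.12, 0.13 and -1.38, each overlapping Injured 4 hr (exact permutation p = 0.2 in both, n = 3 each). The difference was -1.36, -0.89 and -0.95 on the Indo arrays and -0.75, -1.72 and -1.24 on the NS398 arrays, so the probes were also apart on each of those 6. Because the 2 probes differed in this way, no level of the gene as a whole is given. Taken against Cntfr on the same array, Ntf3 43G09 averaged -1.48 in MP and 0.17 in Injured 4 hr without overlap (exact permutation p = 0.1, n = 3 each). The same measure averaged -0.78 in Acet, also without overlap (exact permutation p = 0.1, n = 3 each), and -0.07 in CKIN, which overlapped Injured 4 hr (exact permutation p = 0.8, n = 3 each). These differences contain the low 43G09 values already given, so they are not separate evidence. How many other probe pairs lack overlap in this way was not counted.

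**Figure D2:**
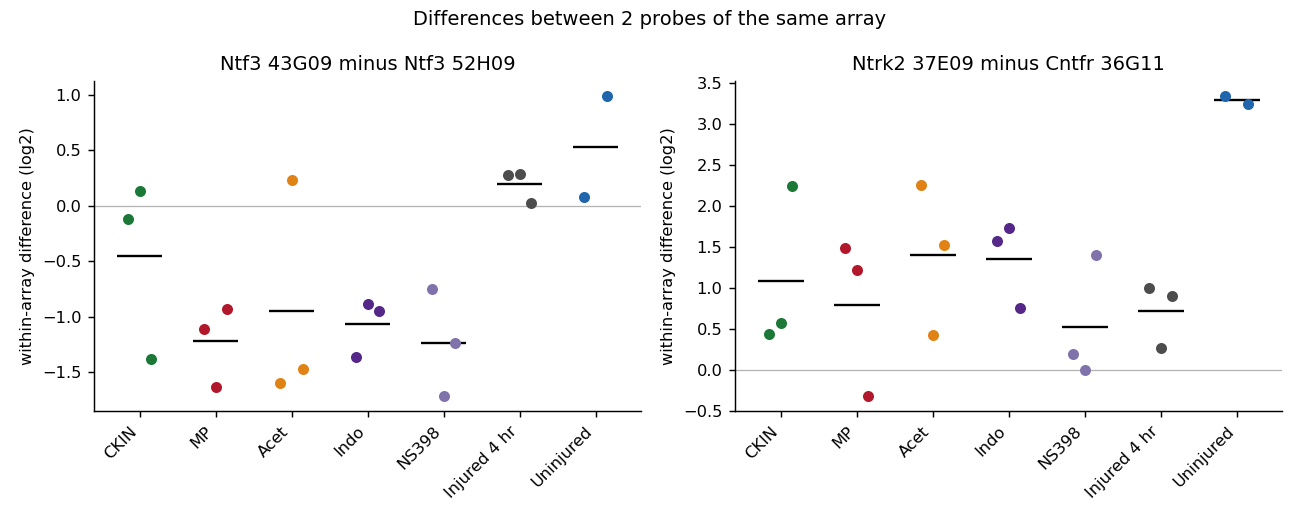
Differences between 2 probes on the same array (vertical axes, log2 units) in the 7 groups (horizontal axes), where each point is 1 array and each bar the group mean. The Ntf3 probes differ by -1.64 to -0.93 in MP and by 0.02 to 0.28 in Injured 4 hr, and Ntrk2 minus Cntfr is 0.27 to 0.999 in Injured 4 hr and above 3 in Uninjured.

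Compared directly, the treatments set against PBS did not differ in Ntf3 by the test. Ntf3 43G09 was -1.06 ± 0.39 (SE) in MP relative to CKIN, with an adjusted p of 0.221 in limma and arrays that did not overlap, as for 8.78% of all probes in the lower direction. It was the 1 member probe of 4 with an unadjusted p under 0.05 there, where 0% of 3632 probes were called and 15.3% had such a p. MP relative to Acet gave -0.58 ± 0.39 (adjusted p = 0.949) and CKIN relative to Acet 0.49 ± 0.39 (adjusted p = 0.536). No member was called or had an unadjusted p under 0.05 in those last comparisons, where limma called 0.0228% and 0.16% of all probes and 6.3% and 17.6% had such a p. Ordered by mean from high to low, Ntf3 43G09 ran Injured 4 hr (-0.29), Uninjured (-0.93), CKIN (-1.62), Indo (-1.97), NS398 (-2.05), Acet (-2.10) and MP (-2.68). Neighbours in this order overlapped except Injured 4 hr and Uninjured. Indo and NS398 are ratios to the ETOH and DMSO pools and the other groups to a PBS pool. Their places in this order therefore compare ratios, not levels.

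Indo and NS398 were measured against their own vehicle pools, so each pool counts as 1 control sample and the variation among control cultures does not enter the test. Ntf3 43G09 had -2.49, -1.97 and -1.44 in Indo relative to the ETOH pool, a change of -1.97 ± 0.27 (SE, adjusted p = 4.02e-05, limma). In NS398 it had -2.02, -2.12 and -2.003 relative to the DMSO pool, a change of -2.05 ± 0.27 (SE, adjusted p = 3.89e-05, limma). All 6 arrays were low, and the 3 NS398 arrays lay closest together. Ntf3 52H09 had -1.13, -1.08 and -0.49 in Indo and -1.27, -0.41 and -0.76 in NS398, with changes of -0.90 ± 0.28 (adjusted p = 0.0374) and -0.81 ± 0.28 (adjusted p = 0.0446). The calls of 52H09 were lost without Indo replicates 1 or 2 (adjusted p 0.21 and 0.17) and without each NS398 replicate in turn (adjusted p 0.0573 to 0.243). With Cntfr, 3 of 4 member probes were called in each comparison, all lower, where 13.3% of all probes were called for Indo and 21.4% for NS398. As a measure of what such a test gives on like RNA, Injured 4 hr arrays against the PBS pool called 21.8% of all probes, and there Ntf3 43G09 was -0.29 ± 0.27 (SE, adjusted p = 0.534).

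Between Injured 4 hr and Uninjured, both Ntf3 probes had higher means in the cultures, without a call. Ntf3 43G09 had -0.43, -0.17 and -0.26 in Injured 4 hr, against -1.10 and -0.75 in Uninjured, where replicate 2 has no value. Ntf3 52H09 had -0.70, -0.45 and -0.28 in Injured 4 hr, against -1.18 and -1.73 in Uninjured. Neither probe's groups overlapped, as for 21.9% of all probes in the higher direction. The changes were 0.64 ± 0.43 (adjusted p = 0.342) and 0.98 ± 0.45 (adjusted p = 0.15) in limma. With arrays centred on the 1673 probes measured on all 21 arrays, they were 1.51 and 1.85 and both were called (adjusted p = 0.0112 and 0.00915), as before centring, at 1.95 and 2.29. They shrank to 0.34 and 0.77 after quantile normalization, 0.16 and 0.21 after scale normalization and 0.18 and 0.61 with corrected ratios, none of them called.

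Bdnf, the ligand of TrkB, was barely measured under treatment. Bdnf 30E06 had a value on 2 of 15 treatment arrays and Bdnf 30E12 on 4, against all 6 untreated arrays for both. Of the 4165 probes present on all 6 untreated arrays, 43 (1.03%) had a value on at most 3 treatment arrays. Bdnf 30E06 is among them, while 30E12, with 4 values, is not, and no share was counted for it. The values at hand for 30E06 were -1.05 in MP replicate 2 and -2.27 in NS398 replicate 3. Those for 30E12 were -0.61 in MP replicate 2, -0.79 in Acet replicate 2, -0.50 in Indo replicate 2 and -1.34 in NS398 replicate 2. Missing spots carry no level, and no treatment test was possible for Bdnf under the rule of at least 2 values a group.

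In the untreated arrays Bdnf 30E06 had -1.07, -1.03 and -0.69 in Injured 4 hr, against -1.70, -1.27 and -0.97 in Uninjured. Bdnf 30E12 had -1.05, -0.41 and -0.36 in Injured 4 hr, against -0.67, -0.73 and -1.20 in Uninjured. The groups overlapped for both probes. Changes were 0.38 ± 0.36 (adjusted p = 0.512) and 0.26 ± 0.36 (adjusted p = 0.668) in limma, without a call, and 1.27 and 1.15 with a call when arrays were centred on the probes measured on all arrays (adjusted p = 0.017 and 0.0288). Before centring they were 1.89 and 1.77, both called, and both signs turned after quantile (-0.43 and -0.36) and scale normalization (-0.47 and -0.30), without a call. Against the PBS pool, which is like RNA, 30E06 was called at -0.93 ± 0.25 (SE, adjusted p = 0.017), and that call was lost without any 1 of the 3 arrays (adjusted p 0.0511 to 0.123).

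Ntrk2, the TrkB gene, differed most between cultured and fresh cord. Its centred log2 ratio was 0.48, 0.15 and 0.17 in Injured 4 hr, against 2.83 and 2.51 in Uninjured replicates 1 and 3. Both Uninjured values stood far above the cultures, at the 90.0th and 93.3rd percentile of their arrays, against the 59.3rd to 71.2th in Injured 4 hr, and the lack of overlap was shared with 32.4% of all probes in the lower direction. The mean was 0.27 ± 0.19 in Injured 4 hr (SD, n = 3) and 2.67 ± 0.23 in Uninjured (SD, n = 2). Ntrk2 fell by 2.41 ± 0.46 (SE), with an adjusted p of 0.00167 in limma, number 110 by p-value of 4821 probes. It was the 1 member called of 7 probes tested, where 13.7% of all probes were called, 12.8% in the lower direction. Its source plate moved the other way, with a median change of 0.23. The direction was lower under every setting tried, and the call was lost before centring (-1.10, adjusted p = 0.1), after quantile normalization (-1.10, adjusted p = 0.695) and after scale normalization (-1.21, adjusted p = 0.406), the last 2 of which equalise the wider spread of the Uninjured arrays.

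Set against Cntfr on the same array, Ntrk2 was 0.999, 0.27 and 0.91 in Injured 4 hr, against 3.34 and 3.24 in Uninjured. Set against Ntrk3 it was 1.16, -0.11 and -0.05 in Injured 4 hr, against 2.89 and 2.40 in Uninjured. Neither difference overlapped between groups, and each gave an exact permutation p of 0.1 (two-sided, n = 3 and 2), the smallest possible. Subtraction on the same array removes the centring but not the wider spread of the Uninjured arrays. The share of other probe pairs without overlap was not counted. Markers of several cell types were lower in Injured 4 hr as well. Over all probes, limma called 12.8% lower and 32.4% were lower without overlap. An unadjusted p under 0.05, in either direction, was found for 29.1%. Of neuronal marker probes 6 of 11 fell. The 9 present on all arrays had array means of 1.57 to 1.64 in Injured 4 hr and 3.47 to 3.85 in Uninjured. Of astrocyte marker probes 6 of 10 fell. The 6 present on all arrays, which are not the same set, had array means of 0.86 to 0.95 in Injured 4 hr and 2.64 to 2.73 in Uninjured. Of oligodendrocyte marker probes 1 of 8 fell, near the 12.8% of all probes, with a median change of -1.07 and 7 of 8 lower without overlap. Of fibroblast probes limma called 0 of 6, with 2 lower at an unadjusted p under 0.05, a median of -0.72 and all 6 lower without overlap. Of skeletal muscle probes 1 of 4 fell (Ckm, -1.30). The list did not move together, with a median change of 0.31 and a highest change of 1.05. Of its probes 2 were higher without overlap, as were 21.9% of all probes. Limma called 0 of 5 microglia probes (1 higher and 1 lower at an unadjusted p under 0.05), 0 of 3 blood probes and 0 of 2 Schwann cell probes (0 at such a p in both). The part of the cell markers in the Ntrk2 result was not tested.

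Under treatment Ntrk2 spread widely. It had -1.002, -0.80 and 0.42 in CKIN, -0.48, 0.34 and -1.08 in MP and 0.05, -0.35 and 0.56 in Acet. All 3 groups overlapped Injured 4 hr, and the changes of -0.72 (adjusted p = 0.229), -0.67 (adjusted p = 0.408) and -0.18 (adjusted p = 0.916) were not called in limma. Indo had -0.19, -0.03 and -0.57 relative to the ETOH pool, and NS398 had -1.20, -0.97 and -0.15 relative to the DMSO pool. These changes were -0.26 ± 0.29 (adjusted p = 0.642) and -0.77 ± 0.30 (adjusted p = 0.0642). All 15 treatment values lay below the Uninjured values, although those of Indo and NS398 have other pools as denominators and are not comparable as levels. In the order of means from high to low, Uninjured stood apart from Injured 4 hr without overlap, and from there through Acet, Indo, MP, CKIN and NS398 every neighbour overlapped.

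Ntrk3, the TrkC gene and receptor of NT-3, was measured on all 6 untreated arrays and on 6 of 15 treatment arrays. It had -0.68, 0.26 and 0.21 in Injured 4 hr, against -0.05, 0.07 and 0.11 in Uninjured. The Injured 4 hr arrays spread to both sides of the Uninjured ones, and the change of -0.11 ± 0.37 (SE) was not called (adjusted p = 0.86, limma). It turned to 1.40 with a call before centring (adjusted p = 0.0413). MP replicates 1 and 2 had -0.55 and 0.13, a change of -0.14 ± 0.43 from Injured 4 hr that was not called (adjusted p = 0.901). Single values were -0.21 in CKIN, -2.04 in Acet, -0.71 in Indo and -0.86 in NS398, each on 1 array, without a test. The Acet value was the low one.

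Cntfr was measured on all 21 arrays and, relative to the array median, lay lower on all 15 treatment arrays than on the 6 untreated arrays. The margin was narrow, with -0.76 in MP replicate 3 as the highest treatment value and -0.74 in Injured 4 hr replicate 3 as the lowest untreated value. The share of all probes with this pattern was not counted. The Indo and NS398 values are ratios to other pools than the untreated values, so for them this compares ratios, not levels. It had -1.44, -1.37 and -1.82 in CKIN, against -0.52, -0.12 and -0.74 in Injured 4 hr. The CKIN arrays lay below all Injured 4 hr arrays, as for 38.8% of all probes. The change of -1.08 ± 0.38 (SE) was just called (adjusted p = 0.0468, limma), was lost when any 1 of the 6 arrays was left out (adjusted p 0.0647 to 0.167), and had the opposite sign before centring, at 0.85. MP had -1.97, -0.87 and -0.76 and Acet -2.21, -0.78 and -0.97, and replicate 1 was the low array of both groups. These groups did not overlap Injured 4 hr, as for 20.5% of all probes in MP and 20.4% in Acet in the lower direction. The changes of -0.74 (adjusted p = 0.312) and -0.86 (adjusted p = 0.317) were not called. Before centring they were 1.25 and 1.07.

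Relative to their own vehicle pools, Cntfr was lower in both cyclooxygenase inhibitor groups. Indo had -1.76, -1.76 and -1.32, a change of -1.61 ± 0.27 (SE, adjusted p = 0.000206, limma). NS398 had -1.39, -0.97 and -1.55, a change of -1.31 ± 0.27 (SE, adjusted p = 0.00168). The NS398 call was lost when only the NS398 arrays entered the fit (adjusted p = 0.0622). Against the PBS pool, Injured 4 hr gave -0.46 ± 0.27 (adjusted p = 0.275). The other probes of its plate had median changes of -0.58 in Indo and -0.31 in NS398. Injured 4 hr and Uninjured differed little in Cntfr, with -0.51, -0.44 and -0.73 in Uninjured and a change of 0.10 ± 0.38 in Injured 4 hr (adjusted p = 0.874). Of its 21 values, 5 were logarithms of small whole-number ratios, 4 of them under treatment, against 0 of 20 for Ntf3 43G09.

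**Figure D3:**
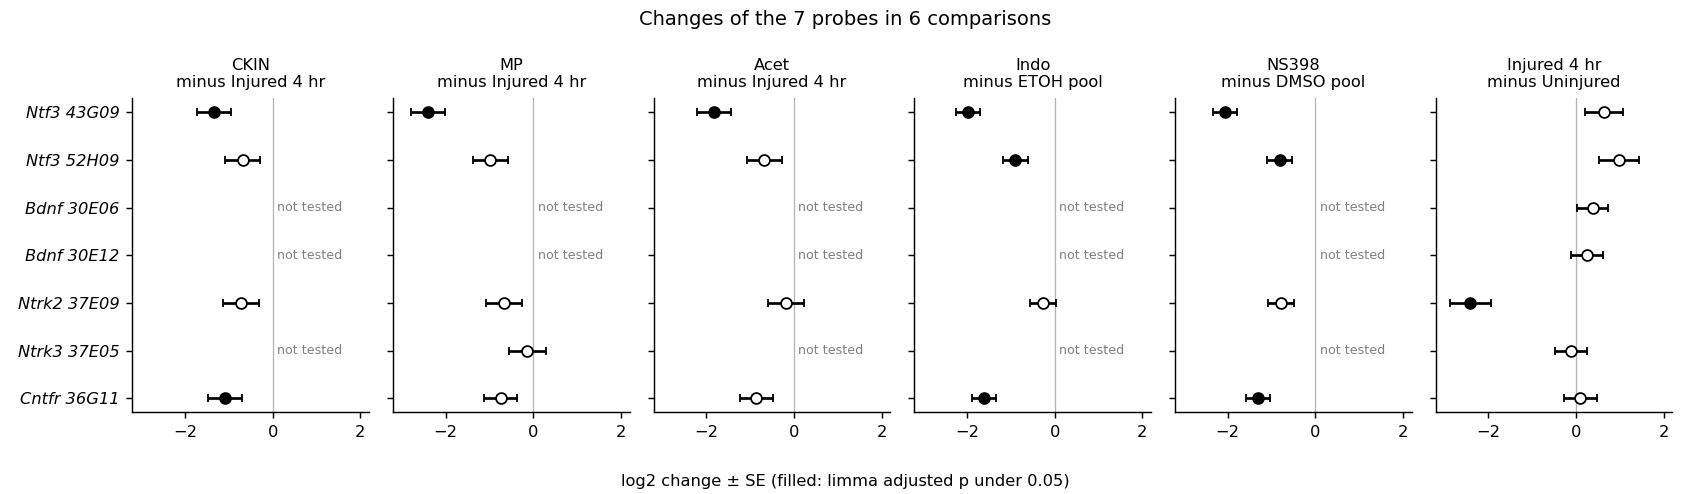
Log2 changes of the 7 member probes (rows) in 6 comparisons (panels), with points at the change on the horizontal axes (log2 units), bars of 1 SE, and filled points for an adjusted p under 0.05 in limma. Ntf3 43G09 is filled in all 5 treatment panels, where before centring the CKIN and Acet changes have the opposite sign, and Ntrk2 is filled in the panel of Injured 4 hr minus Uninjured.

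Cell markers were read beside the treatment results, relative to the array median. In MP relative to Injured 4 hr, limma called 0 of 11 neuronal, 0 of 10 astrocyte and 0 of 8 oligodendrocyte marker probes, with 0, 3 and 3 of them at an unadjusted p under 0.05, all lower, against 17.7% of all probes. Array means were taken over the marker probes present on all arrays (6 astrocyte, 6 oligodendrocyte and 9 neuronal). Those of astrocyte markers were -0.27, -0.23 and 0.97 in MP, against 0.86, 0.92 and 0.95 in Injured 4 hr, given from low to high. Those of oligodendrocyte markers were 0.13, 0.22 and 2.40 in MP, against 1.67, 1.72 and 1.88 in Injured 4 hr. For both glial lists, 2 of the 3 MP arrays lay below the Injured 4 hr arrays and the other above them. Array means of neuronal markers ran from 0.87 to 2.57 in MP and from 1.57 to 1.64 in Injured 4 hr. In CKIN, where 20.1% of all probes were called, 5 of 8 oligodendrocyte, 3 of 10 astrocyte, 2 of 11 neuronal, 2 of 5 microglia (C1qb and Cx3cr1) and 1 of 4 fibroblast probes (Col1a2) fell. The microglia list had a median change of 0.06, and Itgam (1.43), Aif1 (0.33) and Csf1r (-0.46) averaged higher than in Injured 4 hr (0.64, -0.17 and -0.52). The fibroblast list had a median of -0.43 and ranged from -2.30 to 0.94. Its Col3a1 averaged 0.95 in CKIN and 0.01 in Injured 4 hr. The Injured 4 hr arrays were themselves high against the PBS pool, which is like RNA. There 8 of 8 oligodendrocyte, 5 of 10 astrocyte and 11 of 11 neuronal probes were called higher, where 21.8% of all probes were called. Mbp averaged -0.04 in CKIN and 2.21 in Injured 4 hr, and Gfap averaged 0.03 and 1.87. In Acet 2 of 6 fibroblast probes fell, Col1a1 and Col1a2, where 1.31% of all probes were called. In NS398, where 21.4% of all probes were called relative to the DMSO pool, both Schwann cell probes (Pmp22 3.21, Prx 1.99) and 3 of 6 fibroblast probes (Dcn 2.98, Col1a2 1.72, Col1a1 1.37) rose, as did C1qb (1.496, microglia) and Hbb (1.24, blood). In the same comparison 1 of 11 neuronal, 1 of 10 astrocyte and 1 of 8 oligodendrocyte probes rose. Several of the probes named for NS398 were also called higher on the Injured 4 hr arrays against the PBS pool. They were Pmp22 (1.74), Dcn (1.55), Col1a2 (1.12), C1qb (1.74) and Hbb (2.17), whereas Prx (0.28) and Col1a1 (0.19) were not called there. In Indo, where 13.3% of all probes were called, 1 of 11 neuronal probes rose and 1 of 4 skeletal muscle probes fell. There 0 of 10 astrocyte and 0 of 8 oligodendrocyte probes were called in limma, with 0 and 2 at an unadjusted p under 0.05, both higher. The part of these cells in the Ntf3 and Cntfr results was not tested.

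The pathway was read from fixed lists, which include the members, with directions relative to the array median. The ligand list includes the Ntf3 and Bdnf probes, and outside the vehicle pool comparisons little in it passed the test. In Injured 4 hr relative to Uninjured, 0 of 14 ligand probes were called in limma, 2 had an unadjusted p under 0.05 (29.1% of all probes did), both higher, and the median change was 0.38, against -0.03 over all probes. Of these 2 probes, 1 was Ntf3 52H09. In MP 1 of 9, in Acet 1 of 12 and in CKIN 1 of 11 ligand probes were called, each time Ntf3 43G09, with list medians of -0.49, -0.50 and -0.12. Of all probes, 2.14%, 1.31% and 20.1% were called in these comparisons, with medians of -0.27, -0.21 and -0.39. Cntf, the ligand of the receptor that Cntfr helps to form, was called higher relative to the pool in Indo (0.90, adjusted p = 0.0398) and in NS398 (1.25, adjusted p = 0.004). It was also called at 0.89 on the Injured 4 hr arrays against the PBS pool (adjusted p = 0.0257), where RNA is like RNA, and had the opposite sign there before centring (-1.30). A probe of Lif, a cytokine related to CNTF, was lower in Indo (-1.204, adjusted p = 0.0175).

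Of the receptor list, 4 of 16 probes fell and 0 rose in Injured 4 hr relative to Uninjured, where 12.8% of all probes fell. The list median was -0.12, and its members ranged from -2.41 to 0.64. Besides Ntrk2 these were Sort1, encoding the proneurotrophin co-receptor sortilin (-1.50, adjusted p = 0.0247), and the GDNF family co-receptors Gfra1 (-1.06, adjusted p = 0.0468) and Gfra2 (-1.03, adjusted p = 0.0412). In CKIN 3 of 10 receptor probes were called, where 20.1% of all probes were. Of these, 2 fell, Cntfr and Il6st, the gp130 signalling subunit (-1.54, adjusted p = 0.0183), and Gfra4 rose (1.56, adjusted p = 0.0393). Il6st had a centred mean of -0.35 in CKIN and 1.19 in Injured 4 hr, and its change was 0.39 before centring. In MP and Acet 0 of 13 and 0 of 15 receptor probes were called in limma, with 0 and 1 at an unadjusted p under 0.05, against 17.7% and 13.5% of all probes.

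Of the adaptors and kinases downstream, 4 of 23 probes fell in Injured 4 hr relative to Uninjured, near the 12.8% of all probes that did. They were the adaptor Grb2 (-1.49), the kinase Akt1 (-1.40), Bex3, whose product binds the p75 neurotrophin receptor (-1.44), and the MAP kinase kinase Map2k1 (-1.65). In CKIN 6 of 21 were called, where 20.1% of all probes were. Kidins220, a Trk scaffold (-2.45, adjusted p = 0.00243), Map2k2 (-2.34, adjusted p = 0.00306), Bex3 (-1.48) and the kinase subunit Pik3cb (-1.28) fell, and Sh2b2 (1.80) and Map2k5 (1.72) rose. Map2k2 also fell in MP (-1.79, adjusted p = 0.0308), the 1 call among 23 probes, where 2.14% of all probes were called. Shc3, a neuronal adaptor of Trk receptors, was the 1 of 23 called in Acet (-1.50, adjusted p = 0.0441), where 1.31% of all probes were called. It was also lower relative to the pools in Indo (-1.60) and NS398 (-1.32).

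Processing enzymes and induced genes completed the lists. In Injured 4 hr relative to Uninjured, Cpe, a carboxypeptidase that trims prohormones and binds proBDNF, fell by 2.51 (adjusted p = 0.000864) and the convertase Pcsk2 fell by 1.09, as 2 of 10 processing probes. Of genes known to be induced by neurotrophins 3 of 16 fell, where 12.8% of all probes did, the secretory granule gene Scg2 (-2.24), the neuropeptide gene Sst (-1.87) and the growth cone gene Gap43 (-1.45). At an unadjusted p under 0.05, 5 probes of this list were higher and 5 lower, against 29.1% of all probes in either direction. In CKIN, where 20.1% of all probes were called, 4 of 14 induced-gene probes fell, Junb (-1.88), Egr1 (-1.35), Gap43 (-1.34) and Sst (-1.32). In MP and Acet 0 of 16 were called in limma, with 2 and 1 at an unadjusted p under 0.05, all lower, against 17.7% and 13.5% of all probes.

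Relative to the vehicle pools, list genes were called in both directions. In Indo, 4 of 9 ligand, 1 of 10 receptor, 4 of 19 adaptor, 1 of 8 processing and 1 of 15 induced-gene probes were called, where 13.3% of all probes were. Besides those given above, Map2k2 (-1.42), the kinase subunit Pik3r1 (-0.91), the transcription factor Creb1 (-0.91) and the urokinase receptor Plaur (-1.05) fell, and Plg, encoding plasminogen (1.18), rose. In NS398, 3 of 11 ligand, 2 of 13 receptor, 6 of 21 adaptor, 1 of 10 processing and 2 of 16 induced-gene probes were called, where 21.4% of all probes were. Pik3cb (-1.05), Maged1 (-1.63) and Pik3r1 (-0.76) fell there. Il6st (0.92), Plcg1 (0.82), Plat, encoding tissue plasminogen activator (2.07), Egr1 (1.51) and Homer1 (0.86) rose, although Plcg1 (-0.06) and Homer1 (-0.03) had the opposite sign before centring. On the Injured 4 hr arrays against the PBS pool, which is like RNA, 15 list probes were called. Il6st (1.19), Plat (1.40) and Egr1 (1.37) were among them, as were Bdnf 30E06, Cntf, Kidins220, Bex3, Grb2, Cpe, Gap43, Npy, Scg2, Sst, Map2k1 and Map2k5, and 12 of the 15 had the opposite sign before centring.

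The calls and directions of these list genes depended on the scaling. Of the 13 named in Injured 4 hr relative to Uninjured, members included, 8 had the opposite sign before centring, among them Sort1, Gfra1, Gfra2, Grb2, Akt1, Bex3, Pcsk2 and Gap43. Of these 13, 0 were called in limma before centring or after quantile or scale normalization, and scale normalization turned Bex3 (0.49) and Gap43 (0.31). With corrected ratios 0 of the 14 named in CKIN were called in limma, and Bex3 (0.50) and Gap43 (0.02) turned sign. In CKIN 9 of the 14 had the opposite sign before centring, as did Map2k2 in MP (0.20) and Shc3 in Acet (0.43).

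Likeness of pattern was measured as Pearson's r of centred ratios over the arrays that 2 probes share, as a description. For Ntf3 43G09 the highest r among 2700 probes was 0.87 with Il2rb, followed by Gp2 and Tipin at 0.86 each, over 20 arrays, where the median probe had 0.32. Its r with the second Ntf3 probe was 0.38, with Cntfr 0.64 and with Ntrk2 0.38. Ntrk2 was most like Sirpa, Hadha and Cep19 at 0.90 each over 20 arrays, where the median probe had 0.47. Cntfr was most like Ddx21b (0.86), Nrxn3 (0.85) and Krt4 (0.84) over 21 arrays, and Ntf3 52H09 most like Klhl41 (0.74, 18 arrays), Emp1 (0.73) and Cebpb (0.71, both 19 arrays). The arrays share pools, groups and print plates, so these values describe common movement only.

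The main differences were refitted under each alternative processing. For Ntf3 43G09 in MP relative to Injured 4 hr, the change ranged from -2.68 to -1.86 under all settings other than the uncentred ratios, each with an adjusted p under the threshold of 0.05 in limma. The -2.68 end sets MP against the PBS pool without the Injured 4 hr arrays, so it is another comparison. Leaving out any 1 of the 6 arrays kept the change from Injured 4 hr between -2.49 and -2.31 with adjusted p from 0.00284 to 0.0426.

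**Figure D4:**
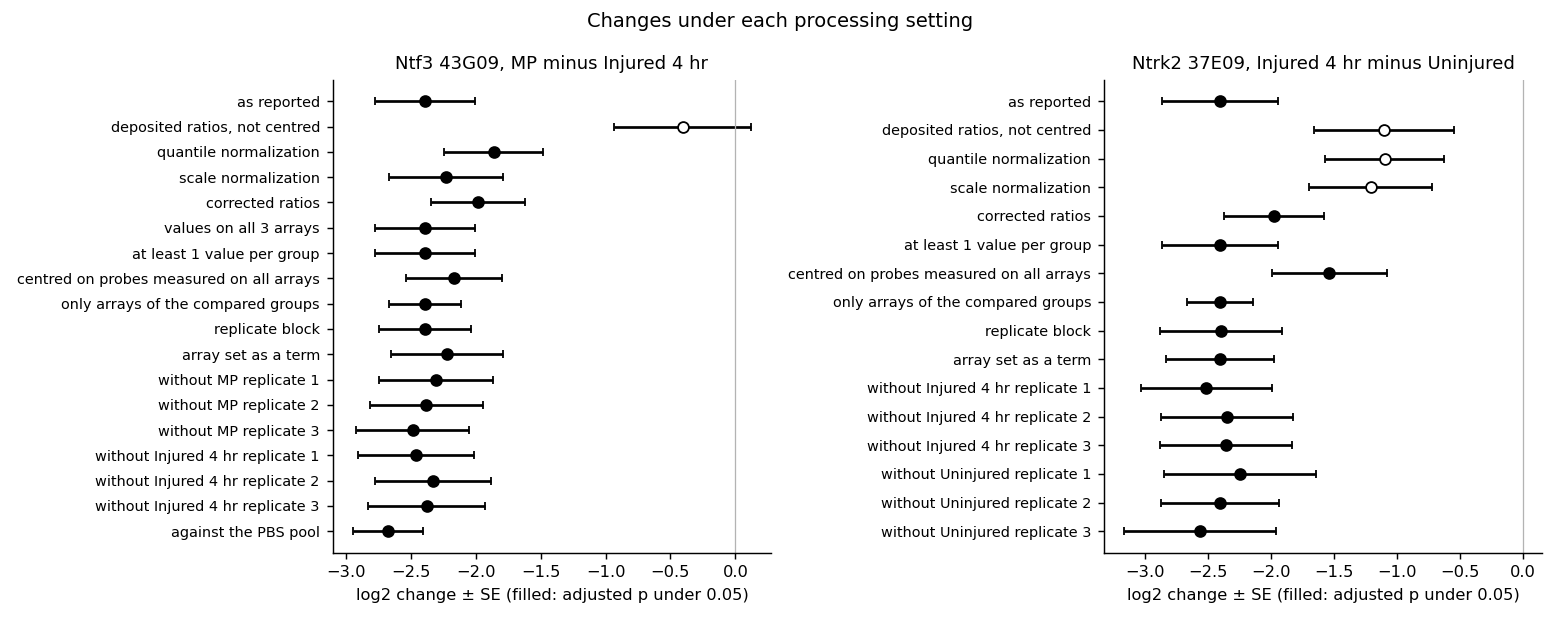
Log2 change with SE (horizontal axes) of Ntf3 43G09 in MP minus Injured 4 hr and of Ntrk2 in Injured 4 hr minus Uninjured under each processing setting (rows), with filled points for an adjusted p under 0.05 in limma. The row for the PBS pool sets MP against that pool and does not use the Injured 4 hr arrays. Ntf3 43G09 is open before centring at -0.41, and Ntrk2 is open before centring and after quantile or scale normalization, at -1.10, -1.10 and -1.21.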

How the data were processed

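The log2 ratios, 1 per probe and array, were used as the authors deposited them; sample over reference pool was read from the order in the titles, which is likely but not stated, and the base 2 was read from the values. The sources used here do not give the dyes, scanner, normalization, background treatment or spot filter. Symbols came from the platform annotation and were updated by gene identifier for 4375 of 4423 probes with 1 symbol. Gapdh spots (53) were averaged, and other probes of 1 gene were kept apart.

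The median of an array's measured probes was subtracted from its values. All 21 arrays entered 1 fit with a coefficient per group (limma 3.58.1, R 4.3.3, lmFit and eBayes), Benjamini-Hochberg adjustment over all probes of a comparison, and a threshold of 0.05, called "called" throughout. Probes with at least 2 values in each compared group were tested. Of the 10 comparisons, those with a vehicle pool test the centred ratio against 0. The steps were tested on simulated data. The number of arrays limits the precision.

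All member probes are named. From each pathway list, called probes whose groups do not overlap are named, up to 8 a list and comparison; marker lists are given by counts with examples. Likeness names the 3 probes with highest r over at least 18 arrays. Members and lists were chosen with earlier results of these data known. Promoter windows are from RefSeq (GRCr8). Same-numbered replicates did not deviate together in every pair of any comparison, so numbers were not taken as pairs. Alternatives were uncentred ratios, quantile and scale normalization, a correction of each array against the Injured 4 hr mean (loess, span 0.4) and its plates (at least 20 probes), other filters, other samples in the fit, a replicate block, an array-set term, the PBS pool as control, leaving out each array, and, chosen after seeing the data, centring on the probes measured on all arrays.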

Additional observations from a re-analysis of the deposited data

How the results depend on the processing

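Alternatives gave 716 values beside those reported, of which 48 lost a call, 38 gained one and 12 reversed. The other 618 kept their side of the threshold, and 50 of these, not called under either setting, changed sign. All 12 reversals came from the deposited, uncentred ratios. They were, in Injured 4 hr relative to Uninjured, Ntrk3 at 1.40; in CKIN, Ntf3 43G09 at 0.60, Ntf3 52H09 at 1.25, Ntrk2 at 1.21 and Cntfr at 0.85; in MP, Ntrk2 at 1.32, Ntrk3 at 1.55 and Cntfr at 1.25; in Acet, Ntf3 43G09 at 0.12, Ntf3 52H09 at 1.26 and Ntrk2 at 1.75; and in Injured 4 hr against the PBS pool, Ntrk2 at -1.93. Counts of member probes called moved as follows; other than fewer tested probes or arrays, causes were not tested. Injured 4 hr relative to Uninjured went to 6 uncentred, 6 centred on common probes, 2 with only the compared arrays, and 0 with quantile normalization, scale normalization or values required on all 3 arrays, where Ntrk2 was not tested, against 1 reported. CKIN had 2, against 2 uncentred, which were other probes (Ntrk2 and Ntf3 52H09, both higher), 3 with the PBS pool, 1 with scale normalization, 1 with at least 1 value a group, and 0 with quantile normalization, corrected ratios, common-probe centring or the array-set term, and 0 to 1 with 1 array left out. MP had 1, against 3 uncentred and 3 with the PBS pool as control. Acet had 1, against 2 uncentred, 3 with the PBS pool, 0 with quantile normalization or corrected ratios, and 0 to 1 with 1 array left out. NS398 had 3, against 1 with only its own arrays. Injured 4 hr against the PBS pool had 1, against 7 uncentred, 4 with quantile normalization, 2 with scale normalization, 0 with corrected ratios, which are set against the Injured 4 hr mean and so leave it near 0 by construction, 6 with common-probe centring, 4 with only its own arrays, and 0 to 0 with 1 array left out. Indo stayed at 2 to 3, and the direct comparisons of treatments at 0. Over all probes, Injured 4 hr relative to Uninjured had 661 calls, 42 of them higher, against 2430 uncentred (2416 higher), 1898 with common-probe centring (1738 higher), 1824 with only the compared arrays, 359 with corrected ratios, 29 with scale and 16 with quantile normalization. CKIN had 752, against 2232 uncentred, 1222 with scale normalization, 410 with common-probe centring, 27 corrected and 6 with the array-set term. MP had 94, against 3169 uncentred, all higher, 1359 against the PBS pool, 634 with scale normalization, 40 corrected, 36 with the array-set term, 35 with quantile normalization and 24 with only the compared arrays. Acet had 62, against 3370 uncentred, 1417 against the PBS pool, 494 with scale normalization, 131 with only the compared arrays and 34 corrected. Indo had 507 (288 to 946), NS398 958 (133 to 1977) and Injured 4 hr against the PBS pool 1058 (0 to 4408) over the settings other than leaving out a replicate, and MP relative to CKIN 0 (0 to 19), MP relative to Acet 1 (0 to 8) and CKIN relative to Acet 6 (0 to 110). With a replicate block the count of member calls was the same in each comparison (1 in MP, where Ntf3 43G09 stayed at -2.39 with adjusted p = 0.00274); same-numbered arrays of MP and Acet correlated at 0.344, 0.513 and 2e-04. Where 1 array of a group was left, it was assumed to vary like the other groups. Signal over background is not given, so dim spots could not be told from bright ones.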
